A study of Homo sapiens with 6 samples.

Results

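The genes of G2 and mitosis were followed in A549 cells after knockdown of GSE1. The set held 35 genes, each named by its symbol and found once among the 60612 genes of the deposited table: mitotic cyclins and kinases, kinesins, kinetochore and spindle proteins, and the transcription factor FOXM1. A549 is an established human lung adenocarcinoma line of epithelial character. Of 6 libraries, 3 came from A549 cells transfected with an siRNA against GSE1 (siGSE1) and 3 from A549 cells transfected with a negative control siRNA, all harvested 48 hours after transfection. The series text aimed at the genes and pathways that GSE1 influences. Replicates are numbered 1 to 3 in each group, with no word on separate cultures, so p-values reflect how far these libraries scatter, which can be technical variation alone. The labels name no step that synchronizes the cell cycle. In bulk RNA, fewer cells in a phase cannot be told apart from less RNA per cell.

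Cells enter mitosis when cyclin B binds and activates CDK1, with Polo and Aurora kinases amplifying the signal. Kinetochores then attach chromosomes to the spindle, the checkpoint holds the anaphase-promoting complex in check until all are attached, and that complex ends mitosis by marking cyclin B and securin for destruction. Most of these genes are transcribed in a wave in G2, driven by B-MYB, the MuvB complex and FOXM1 at promoters with a CHR element (cell cycle genes homology region) and CCAAT boxes bound by NF-Y.

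Libraries held 14475992 to 20755506 counts. Levels are given as deposited FPKM (counts relative to exonic length and to the total of the library). Log2 fold changes of siGSE1 over control are from edgeR's quasi-likelihood test with TMM scaling, with p adjusted over 15937 genes and a threshold of 0.05. The targeted gene GSE1 (ENSG00000131149), which encodes a coiled-coil protein, had 7.37, 8.06 and 7.92 FPKM in control replicates 1, 2 and 3 and 3.84, 4.06 and 3.73 in siGSE1 replicates 1, 2 and 3, an edgeR log2 estimate of -1.03 ± 0.06 (SE) at adjusted p = 2.14e-08. Control replicate 2 stood apart, with a chi-square per degree of freedom of 9.20 and 8.23 against its group, against 4.34 between control replicates 1 and 3 and 2.44 to 3.17 among siGSE1 libraries. The epithelial genes KRT7, KRT8, KRT18, KRT19 and CDH1 were at 27.3 FPKM or more while EPCAM was at 0.45 to 1.14. Of the markers of leukocytes, fibroblasts and endothelium, 16 of 18 were under 1 FPKM in every library. The exceptions were CD14, at 3.14 to 5.67, and COL1A1, at 0.99 to 1.56. Summed over each list, epithelial markers had 2200 to 2530 FPKM in control and 2100 to 2110 in siGSE1 libraries, leukocyte markers 3.31 to 5.73 and 3.14 to 5.12, fibroblast markers 1.25 to 1.95 and 1.97 to 2.16, and endothelial markers 0.10 to 0.17 and 0.04 to 0.10. Their part in the results was not tested. Gene positions are those of the deposited table, which the submitters' processing notes place on hg38.

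The mitotic genes did not move as a block. Of 35 members, all of which passed the low-count filter, 10 rose, 5 fell and 20 did not pass the threshold, so that 28.6% rose and 14.3% fell. Among all genes tested, 10.9% rose and 9.02% fell. Where at least 1 FPKM in 3 libraries was required, 25.0% of genes changed, and 10 of 34 members rose and 5 fell. Members were chosen with earlier results of these data known. BIRC5, CENPA, AURKB, INCENP, TOP2A, FOXM1, KIF20A, CCNB2, MKI67 and CCNA2 were the 10 that rose, by 0.19 to 0.50 on the log2 scale. UBE2C, AURKA, PTTG1, CCNB1 and ECT2 were the 5 that fell, with log2 fold changes of -0.28 to -0.18. The 15 changed members had a median fold of 1.18, and all changed genes 1.28. The median log2 fold change of all members was 0.08, beside 0.00 over all genes tested. By library, the median of all members overlapped between the groups, as given below. The 20 members that did not pass had values of -0.18 to 0.14, and 4 of them had an unadjusted p under 0.05. The groups did not overlap in FPKM for 21 of 35 members, beside 36.1% of all genes.

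Under 16 alternative fits, 6 of the 10 risen members (BIRC5, CENPA, AURKB, INCENP, TOP2A and FOXM1) kept their call in all 16, and 0 of the 5 fallen members did. With TPM scaling, which sets each library's summed FPKM equal, 13 members rose and 2 fell. In that fit 2544 of all genes rose and 929 fell, instead of 1730 and 1437. Without siGSE1 replicate 1 or 3, 6 rose and 1 fell in each case. Without control replicate 1, 2 fell, as was also the case without siGSE1 replicate 2. Over all genes, the share called also dropped in these fits, from 19.9% to 13.2% without siGSE1 replicate 1, 12.6% without siGSE1 replicate 2, 11.4% without siGSE1 replicate 3 and 16.4% without control replicate 1. At stricter limits after the series text (adjusted p of at most 0.001 and, since the text's size limit is given for a ratio of RPKM with no scale, a log2 fold change of at least 0.5), BIRC5 alone passed, just at the limit of size, beside 2.55% of all genes.

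**Figure D1:**
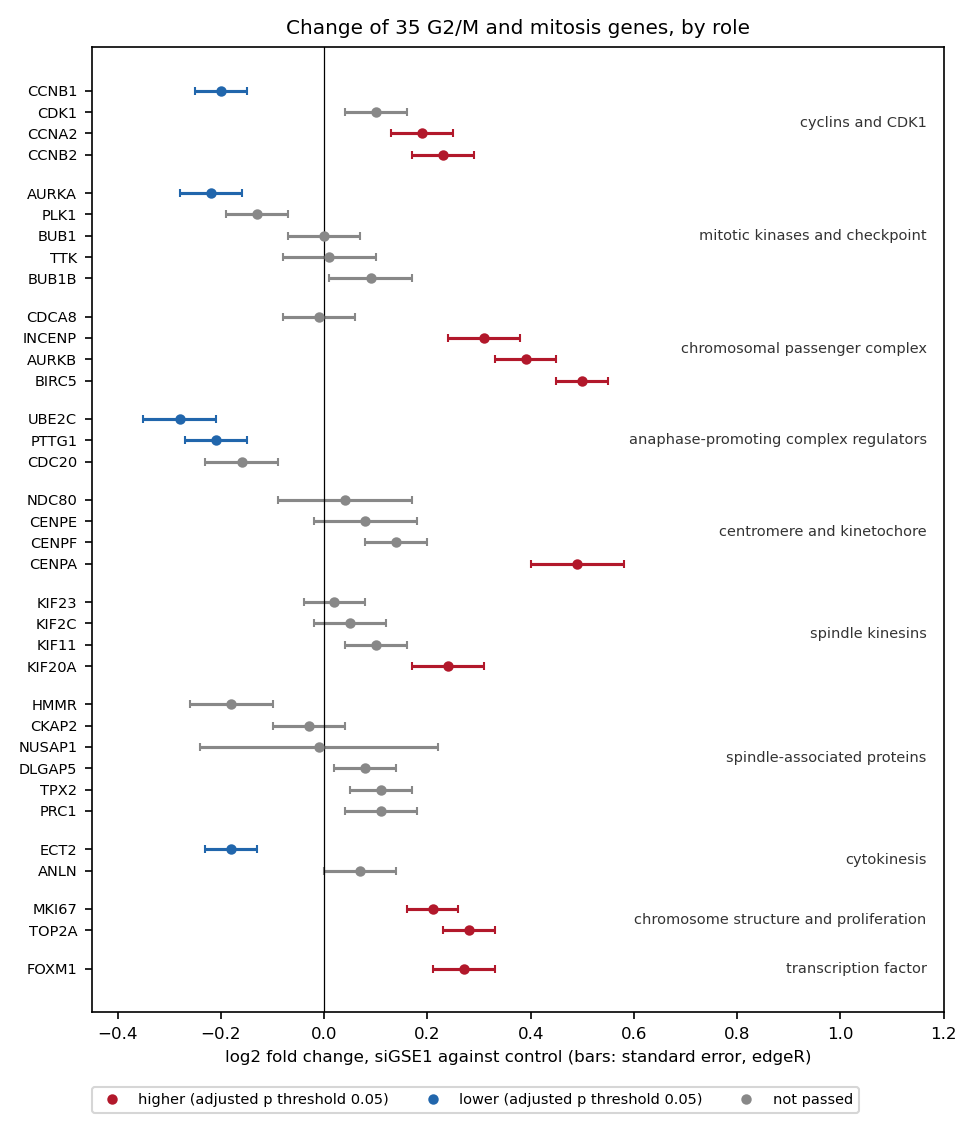
Log2 fold change (horizontal axis) of each of the 35 genes, grouped by role, in siGSE1 against control cells. Points are edgeR estimates and bars their standard errors, red for the 10 that rose, blue for the 5 that fell and gray for the 20 that did not pass. The largest increases, up to 0.50, were in the chromosomal passenger complex and CENPA, and the 5 decreases lie at -0.28 to -0.18.

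By library, the median of the 10 risen genes, as log2 CPM relative to the control mean, was 0.04, -0.04 and -0.01 in control replicates 1, 2 and 3 and 0.28, 0.24 and 0.31 in siGSE1 replicates 1, 2 and 3. That of the 5 fallen genes was 0.07, -0.05 and -0.03 in control cells and -0.21, -0.17 and -0.25 in siGSE1 cells. The 20 other members had 0.10, -0.05 and -0.02 in control cells and 0.09, 0.02 and 0.04 in siGSE1 cells. The split into these sets rests on the same values, so the medians describe the calls and test nothing. All 35 members together had 0.08, -0.05 and -0.02 in control cells and 0.11, 0.07 and 0.05 in siGSE1 cells. Control replicate 1 thus lay above siGSE1 replicates 2 and 3.

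**Figure D2:**
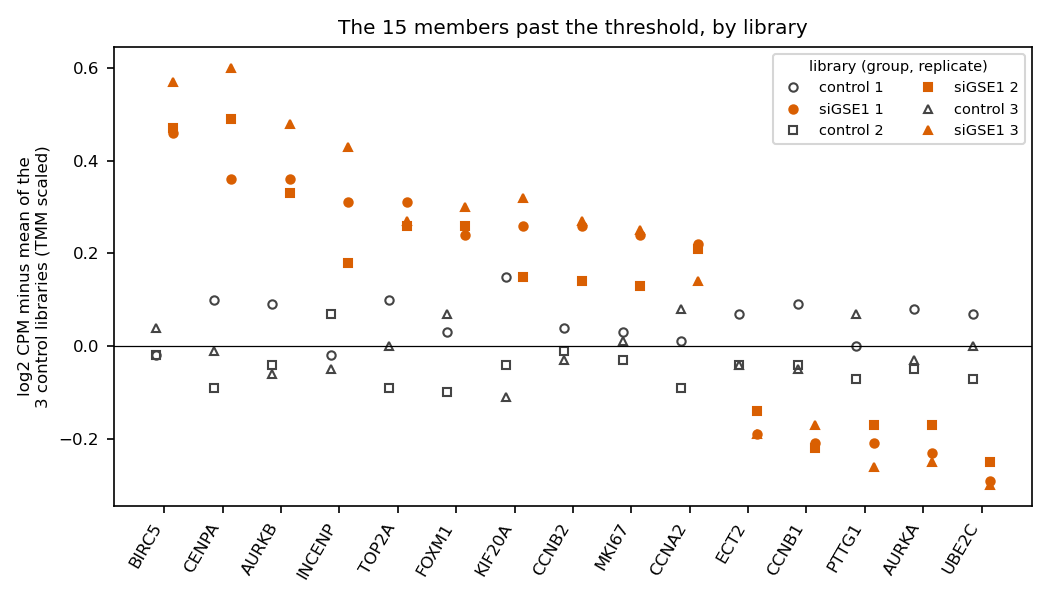
Log2 CPM of the 15 changed members in each library, minus the mean of the 3 control libraries (vertical axis). Open symbols are control libraries and filled symbols siGSE1 libraries, with a circle, square and triangle for replicates 1, 2 and 3. For each gene except KIF20A, where control replicate 1 and siGSE1 replicate 2 meet on this scale, the 3 filled symbols lie on the same side of all 3 open ones.

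The promoters of these genes are shown for 2 pairs that moved in opposite directions, CCNB1 and PTTG1, which fell, and CCNB2 and CENPA, which rose. They were chosen with their changes known, and each holds a CHR form and a CCAAT match. The CHR form nearest the start is not the same in all of them. Each sequence is the 250 bases before the RefSeq gene start (GRCh38.p14), 5′ to 3′ on the gene's strand, with matches on either strand in capitals, which mark the CHR form TTTGAA, the NF-Y box CCAAT and the other CHR form, TTTAAA. The windows are chr5:69166900-69167149 (plus strand) for CCNB1, chr15:59104896-59105145 (plus strand) for CCNB2, chr5:160421605-160421854 (plus strand) for PTTG1 and chr2:26785806-26786055 (plus strand) for CENPA.
CCNB1: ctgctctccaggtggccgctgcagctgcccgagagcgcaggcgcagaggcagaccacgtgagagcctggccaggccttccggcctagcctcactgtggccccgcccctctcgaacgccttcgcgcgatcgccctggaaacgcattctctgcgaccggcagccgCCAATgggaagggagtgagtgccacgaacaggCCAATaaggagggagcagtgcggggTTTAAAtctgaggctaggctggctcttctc
CCNB2: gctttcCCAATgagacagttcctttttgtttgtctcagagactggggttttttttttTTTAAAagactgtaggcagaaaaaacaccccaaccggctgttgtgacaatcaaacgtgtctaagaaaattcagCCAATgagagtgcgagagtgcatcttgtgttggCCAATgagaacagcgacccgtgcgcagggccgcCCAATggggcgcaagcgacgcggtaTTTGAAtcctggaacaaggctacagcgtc
PTTG1: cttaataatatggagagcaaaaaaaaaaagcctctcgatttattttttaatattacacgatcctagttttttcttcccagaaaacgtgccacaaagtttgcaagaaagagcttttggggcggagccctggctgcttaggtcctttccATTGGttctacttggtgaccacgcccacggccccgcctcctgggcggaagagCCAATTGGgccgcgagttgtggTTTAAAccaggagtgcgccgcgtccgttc
CENPA: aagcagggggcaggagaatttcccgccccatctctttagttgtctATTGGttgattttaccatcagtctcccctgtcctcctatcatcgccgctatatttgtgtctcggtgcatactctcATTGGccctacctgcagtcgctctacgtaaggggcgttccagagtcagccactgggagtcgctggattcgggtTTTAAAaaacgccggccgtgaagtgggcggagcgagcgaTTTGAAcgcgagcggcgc
CCNB1 has TTTAAA with its first base at -30 and CCAAT at -87 and -55, counted back from the start. CCNB2 has TTTGAA at -29, a TTTAAA farther out at -193, and CCAAT at -244, -120, -87 and -54. PTTG1 has TTTAAA at -29 and matches to CCAAT at -103, -51 and -48, the last pair overlapping on opposite strands. It has a second RefSeq start, whose window is not shown. CENPA has TTTGAA at -18 and TTTAAA at -57, with CCAAT on the opposite strand at -205 and -130. Its window lies inside the span of CENPA in the deposited table, which starts at 26764289, and not before that start.

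No promoter window was matched for AURKA and UBE2C, which fell, BIRC5 and FOXM1, which rose, or TTK and TPX2. Windows were matched for the other 29 of the 35 members. TTTGAA, searched on both strands, occurred in 17 of them (58.6%) and in 16.1% of the 27303 genes with a window of that length. TTTAAA, which reads the same on both strands, occurred in 11 (37.9%) and in 13.5% of all. CCAAT occurred in 23 (79.3%) and in 37.0% of all, and a CHR letter match together with CCAAT in 20 (69.0%) and in 10.7% of all. By direction, such a joint match was found in 6 of 8 matched genes that rose, 3 of 3 that fell and 11 of 18 that did not pass. Both CHR forms occurred in each direction. Of the matched genes that fell, CCNB1 and PTTG1 had TTTAAA alone and ECT2 had TTTGAA alone. Of those that rose, CCNB2 and CENPA had both forms, INCENP, MKI67 and TOP2A had TTTGAA alone and KIF20A had TTTAAA alone. AURKB and CCNA2, which also rose, had neither. The letter matches are a description of the windows, not of bound sites.

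The 2 B-type cyclins moved in opposite directions. CCNB1 (ENSG00000134057, chromosome 5, 69167135 to 69178245, plus strand), the main partner of CDK1 at mitotic entry, had 79.8, 73.6 and 73.9 FPKM in control replicates 1, 2 and 3 and 66.5, 66.4 and 68.2 in siGSE1 replicates 1, 2 and 3. All 3 siGSE1 values lay below the lowest control value, a fall from 75.8 ± 3.5 FPKM to 67.0 ± 1.02 (SD, n = 3 each), an edgeR log2 estimate of -0.20 ± 0.05 (SE) at adjusted p = 0.0153. CCNB2 (ENSG00000157456, chromosome 15, 59105126 to 59125045, plus strand), the Golgi-associated B-type cyclin, had 25.7, 24.99 and 25.04 FPKM in control replicates 1, 2 and 3 and 30.7, 28.4 and 30.9 in siGSE1 replicates 1, 2 and 3. All 3 of its siGSE1 values lay above the controls, a rise from 25.2 ± 0.385 FPKM to 30.0 ± 1.38, an edgeR log2 estimate of 0.23 ± 0.06 (SE) at adjusted p = 0.0127. CCNA2, cyclin A of S phase and G2, had 19.5, 18.4 and 20.8 FPKM in the control libraries and 23.03, 23.2 and 21.9 in the siGSE1 libraries, with no overlap and an edgeR log2 estimate of 0.19 ± 0.06 (SE) at adjusted p = 0.044. CDK1, the kinase they activate, had 17.9, 18.9 and 17.2 FPKM in the control libraries and 20.99, 18.97 and 18.9 in the siGSE1 libraries. Its groups overlapped, control replicate 2 and siGSE1 replicate 3 being level, and its log2 fold change of 0.10 did not pass (adjusted p = 0.328).

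The ratio of CCNB2 to CCNB1 within a library does not depend on how libraries are scaled. It was 0.322, 0.340 and 0.339 in control replicates 1, 2 and 3 and 0.463, 0.428 and 0.453 in siGSE1 replicates 1, 2 and 3. The log2 ratio was 0.43 higher in siGSE1 cells (exact two-sided permutation p = 0.1, the smallest that 3 against 3 allow). This pair and the Aurora pair below were chosen after the values were seen, and the adjusted p over the 2 pairs was 0.1. In each pair the genes had moved in opposite directions with no overlap in FPKM. The ratio therefore had to separate the groups and the permutation p had to be 0.1, so it tests nothing further. As single genes, CCNA2 had an adjusted p of 0.075 to 0.15 when any library except control replicate 3 was left out, and 0.0807 by DESeq2. Adjusted p was 0.0654, 0.0707 and 0.0784 for CCNB1 without control replicate 1 and siGSE1 replicates 1 and 2, 0.0623 for CCNB1 with TPM scaling, and 0.0685 and 0.0722 for CCNB2 without siGSE1 replicates 1 and 3.

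Among the kinases of spindle assembly and the checkpoint, 1 of 5 changed, a share close to the 19.9% of all genes tested. AURKA (ENSG00000087586, chromosome 20, 56369389 to 56392337, minus strand), the Aurora kinase of centrosomes and spindle poles, had 50.3, 46.7 and 47.7 FPKM in control replicates 1, 2 and 3 and 41.6, 43.8 and 41.04 in siGSE1 replicates 1, 2 and 3. The groups did not overlap, and the gene fell from 48.2 ± 1.83 FPKM to 42.1 ± 1.45 (SD, n = 3 each), an edgeR log2 estimate of -0.22 ± 0.06 (SE) at adjusted p = 0.0101. PLK1, the Polo kinase that promotes mitotic entry, had 35.1, 31.5 and 34.2 FPKM in the control libraries and 32.1, 30.3 and 31.3 in the siGSE1 libraries. Its groups overlapped through the low control replicate 2 and the high siGSE1 replicate 1, with a log2 fold change of -0.13 (adjusted p = 0.128). Without control replicate 2 its adjusted p was 0.0171. BUB1B, which encodes the checkpoint protein BUBR1, had 12.98, 11.7 and 10.3 FPKM in the control libraries and 12.5, 12.7 and 12.9 in the siGSE1 libraries, with control replicate 1 above every siGSE1 library. It had a log2 fold change of 0.09 (adjusted p = 0.462), and BUB1 and TTK (the checkpoint kinase MPS1) had -0.00 and 0.01 (adjusted p = 0.989 and 0.963). AURKA lost its call without siGSE1 replicate 1 or 3 (adjusted p = 0.0541 and 0.0626).

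The chromosomal passenger complex, which corrects kinetochore attachments and later directs cytokinesis, had 3 of 4 subunits higher, beside 10.9% of all genes tested. Its kinase AURKB (ENSG00000178999, chromosome 17, 8204733 to 8210600, minus strand) had 30.8, 28.5 and 28.4 FPKM in control replicates 1, 2 and 3 and 38.05, 37.6 and 41.4 in siGSE1 replicates 1, 2 and 3. Every siGSE1 value exceeded every control value by more than the spread within either group, a rise from 29.2 ± 1.38 FPKM to 39.0 ± 2.07 (SD, n = 3 each), an edgeR log2 estimate of 0.39 ± 0.06 (SE) at adjusted p = 0.000404. BIRC5 (ENSG00000089685, chromosome 17, 78214186 to 78225636, plus strand), which encodes survivin, had 24.4, 24.6 and 25.98 FPKM in control replicates 1, 2 and 3 and 34.9, 35.3 and 37.6 in siGSE1 replicates 1, 2 and 3. It rose 1.41-fold, from 25.0 ± 0.849 FPKM to 35.9 ± 1.43, an edgeR log2 estimate of 0.50 ± 0.05 (SE) at adjusted p = 1.12e-05, the largest change of any member. INCENP (ENSG00000149503, chromosome 11, 62123998 to 62153169, plus strand), the scaffold that activates AURKB, had 21.1, 22.6 and 21.03 FPKM in control replicates 1, 2 and 3 and 27.02, 24.9 and 29.4 in siGSE1 replicates 1, 2 and 3. The groups did not overlap and siGSE1 replicate 3 was highest, a rise from 21.6 ± 0.898 FPKM to 27.1 ± 2.25, an edgeR log2 estimate of 0.31 ± 0.07 (SE) at adjusted p = 0.00342. CDCA8, which encodes the subunit borealin, had 19.2, 18.2 and 19.4 FPKM in the control libraries and 20.5, 18 and 18.8 in the siGSE1 libraries. The siGSE1 values spanned the control values, with a log2 fold change of -0.01 (adjusted p = 0.93). The calls of AURKB, BIRC5 and INCENP held in all 16 alternative fits, with adjusted p of at most 0.00686, 0.000846 and 0.0353.

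The 2 Aurora kinase genes thus moved apart. The ratio of AURKB to AURKA in FPKM was 0.613, 0.610 and 0.595 in control replicates 1, 2 and 3 and 0.914, 0.859 and 1.01 in siGSE1 replicates 1, 2 and 3. The log2 ratio was 0.61 higher in siGSE1 cells (exact two-sided permutation p = 0.1, again the smallest possible and fixed by the choice of the pair). With 1 library left out at a time, the difference stayed between 0.55 and 0.67.

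Of 3 genes whose products act with the anaphase-promoting complex or are its substrate, 2 fell and 0 rose. Of all genes tested, 9.02% fell and 10.9% rose. UBE2C (ENSG00000175063, chromosome 20, 45812576 to 45816957, plus strand), the ubiquitin-conjugating enzyme that works with the complex, had 30.9, 28.4 and 30.03 FPKM in control replicates 1, 2 and 3 and 24.7, 25.6 and 24.6 in siGSE1 replicates 1, 2 and 3. All 3 siGSE1 values lay below the controls, a fall from 29.8 ± 1.3 FPKM to 25.0 ± 0.554 (SD, n = 3 each), an edgeR log2 estimate of -0.28 ± 0.07 (SE) at adjusted p = 0.0107, the largest decrease of any member. PTTG1 (ENSG00000164611, chromosome 5, 160421855 to 160428739, plus strand), which encodes securin, the inhibitor of separase and a substrate of the complex, had 31.3, 30.2 and 33.6 FPKM in control replicates 1, 2 and 3 and 27.8, 28.8 and 26.8 in siGSE1 replicates 1, 2 and 3. It fell from 31.7 ± 1.75 FPKM to 27.8 ± 1.03, an edgeR log2 estimate of -0.21 ± 0.06 (SE) at adjusted p = 0.0239, with no overlap. CDC20, the activator that the checkpoint restrains, had 60.4, 49.5 and 53.5 FPKM in the control libraries and 49.4, 48.4 and 51.5 in the siGSE1 libraries. Control replicate 2 lay among the siGSE1 values, and the log2 fold change of -0.16 did not pass (adjusted p = 0.134), whereas without that library the adjusted p was 0.00595. PTTG1 lost its call with TPM scaling (adjusted p = 0.106) and without any 1 library except control replicate 2 (adjusted p = 0.0519 to 0.111), and UBE2C without siGSE1 replicate 3 (adjusted p = 0.051).

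At centromeres and kinetochores, CENPA rose and the 3 other genes did not pass (10.9% of all genes tested rose). CENPA (ENSG00000115163, chromosome 2, 26764289 to 26801067, plus strand), the histone H3 variant that marks the centromere, had 11.6, 10.2 and 10.9 FPKM in control replicates 1, 2 and 3 and 14.2, 15.7 and 16.7 in siGSE1 replicates 1, 2 and 3. The lowest siGSE1 value was well above the highest control value, a rise from 10.9 ± 0.670 FPKM to 15.5 ± 1.28 (SD, n = 3 each), an edgeR log2 estimate of 0.49 ± 0.09 (SE) at adjusted p = 0.00106. As annotated in the table, 46.1% of its span lies over SLC35F6 on the same strand, a gene of 43.3 ± 2.87 FPKM in control and 41.1 ± 1.31 in siGSE1 cells with a log2 fold change of -0.10 (adjusted p = 0.241). The sources used here do not give how reads in shared stretches were counted. CENPF, a large protein of the outer kinetochore, had 15.4, 13.6 and 14.3 FPKM in the control libraries and 16.7, 15.5 and 16.4 in the siGSE1 libraries. Its groups did not overlap, but the log2 fold change of 0.14 missed the threshold (adjusted p = 0.108), and it passed with TPM scaling (adjusted p = 0.0177), with library totals alone (0.0494) and without control replicate 1 (0.0301). The kinetochore motor CENPE and the microtubule coupler NDC80 were rarer, at 2.28 and 3.09 FPKM over all libraries, with log2 fold changes of 0.08 (adjusted p = 0.631) and 0.04 (adjusted p = 0.85).

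Of the 4 spindle kinesins, KIF20A, a motor of the central spindle needed for cytokinesis, was the 1 that rose (10.9% of all genes did). It had 14.6, 12.9 and 12.4 FPKM in control replicates 1, 2 and 3 and 16.1, 15 and 16.7 in siGSE1 replicates 1, 2 and 3. Control replicate 1 came close to siGSE1 replicate 2, and the rise from 13.3 ± 1.15 FPKM to 15.9 ± 0.876 (SD, n = 3 each) gave an edgeR log2 estimate of 0.24 ± 0.07 (SE) at adjusted p = 0.0345. The call was lost without control replicate 3 (adjusted p = 0.145), siGSE1 replicate 1 (0.108) or siGSE1 replicate 3 (0.161). KIF11, the motor that pushes spindle poles apart, had 14.1, 13.98 and 14.6 FPKM in the control libraries and 15.8, 15.4 and 15.4 in the siGSE1 libraries. The groups did not overlap, and the log2 fold change of 0.10 did not pass (adjusted p = 0.204, and 0.0402 with TPM scaling). KIF23, the motor of the midzone complex centralspindlin, and KIF2C, a microtubule depolymerase, had 0.02 and 0.05 (adjusted p = 0.835 and 0.645).

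Of the 6 genes of spindle-associated proteins, 0 passed the threshold by edgeR, beside 19.9% of all genes tested. TPX2, which activates AURKA on the spindle, was the most abundant of them and had 55.1, 47.8 and 51.5 FPKM in control replicates 1, 2 and 3 and 56.1, 56.6 and 56.5 in siGSE1 replicates 1, 2 and 3. Its siGSE1 values were almost equal and lay above control replicate 1, the highest control, with an edgeR log2 estimate of 0.11 ± 0.06 (SE) at adjusted p = 0.219. HMMR, a spindle pole protein, had 8.65, 8.82 and 8.54 FPKM in the control libraries and 8.16, 8.29 and 7.00 in the siGSE1 libraries. Its siGSE1 values were all lower, replicate 3 most of all, with an edgeR log2 estimate of -0.18 ± 0.08 (SE) at adjusted p = 0.132. PRC1, which bundles microtubules of the central spindle, DLGAP5, a spindle assembly factor, and CKAP2, a microtubule-binding protein, had log2 fold changes of 0.11, 0.08 and -0.03 (adjusted p = 0.305, 0.422 and 0.797). NUSAP1, another microtubule-binding protein of the spindle, stood far below the rest, at 0.72 to 1.08 FPKM and 48 to 72 counts. In the table a same-strand gene with 0 counts covers 99.9% of its span, and a same-strand gene covers 99.5% of that of PRC1, and the part of these overlaps in the levels of NUSAP1 and PRC1 was not tested. TPX2 passed with TPM scaling (adjusted p = 0.0387) and without control replicate 1 (0.0487).

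Of the 2 genes of cytokinesis, 1 fell and 0 rose, beside 9.02% and 10.9% of all genes tested. ECT2 (ENSG00000114346, chromosome 3, 172750682 to 172821474, plus strand), the exchange factor that activates RhoA at the cleavage furrow, had 42.9, 40.2 and 40.6 FPKM in control replicates 1, 2 and 3 and 36.6, 38.3 and 36.5 in siGSE1 replicates 1, 2 and 3. All 3 siGSE1 values were below the controls, a fall from 41.2 ± 1.42 FPKM to 37.2 ± 1.02 (SD, n = 3 each), an edgeR log2 estimate of -0.18 ± 0.05 (SE) at adjusted p = 0.0264. Its adjusted p was 0.115 with TPM scaling, 0.0501 by limma on log2(FPKM + 0.1), and 0.0628 to 0.115 without control replicate 1 or any 1 siGSE1 library. ANLN, the furrow scaffold anillin, had 25.9, 20.8 and 23.1 FPKM in the control libraries and 24.5, 24.9 and 25.1 in the siGSE1 libraries. Control replicates 1 and 2 spanned the siGSE1 values, and its log2 fold change was 0.07 (adjusted p = 0.548).

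TOP2A and MKI67, the members grouped under chromosome structure and proliferation, both rose (10.9% of all genes tested did). Among the 28 G1/S and replication genes given below, 7 rose, 3 fell and 18, PCNA among them, did not pass. TOP2A (ENSG00000131747, chromosome 17, 40388525 to 40417896, minus strand), the topoisomerase that untangles sister chromatids, had 69.5, 61.6 and 66.5 FPKM in control replicates 1, 2 and 3 and 83.04, 80.5 and 80.4 in siGSE1 replicates 1, 2 and 3. The groups were clearly apart, with a rise from 65.9 ± 3.96 FPKM to 81.3 ± 1.5 (SD, n = 3 each), an edgeR log2 estimate of 0.28 ± 0.05 (SE) at adjusted p = 0.00184. MKI67 (ENSG00000148773, chromosome 10, 128096659 to 128126423, minus strand), which encodes the chromosome surface protein Ki-67, had 27.6, 26.8 and 27.8 FPKM in control replicates 1, 2 and 3 and 32.7, 30.7 and 33.1 in siGSE1 replicates 1, 2 and 3. It rose from 27.4 ± 0.552 FPKM to 32.2 ± 1.27, an edgeR log2 estimate of 0.21 ± 0.05 (SE) at adjusted p = 0.00865, and lost its call without siGSE1 replicate 1 or 3 (adjusted p = 0.0562 and 0.0602). FOXM1 (ENSG00000111206, chromosome 12, 2857680 to 2877174, minus strand), the forkhead factor that drives G2/M transcription, had 21.4, 19.8 and 22.4 FPKM in control replicates 1, 2 and 3 and 25.3, 25.9 and 26.5 in siGSE1 replicates 1, 2 and 3. It too rose without overlap, from 21.2 ± 1.32 FPKM to 25.9 ± 0.605, an edgeR log2 estimate of 0.27 ± 0.06 (SE) at adjusted p = 0.00362. FOXM1 and TOP2A passed in all 16 alternative fits, with adjusted p of at most 0.0307 and 0.019. FOXM1 was thus 1 of the 10 members that were higher in siGSE1 cells, while 5 members (UBE2C, AURKA, PTTG1, CCNB1 and ECT2) were lower and 20 did not pass.

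In level per exon length, the members ran from 0.872 FPKM for NUSAP1 to 73.6 for TOP2A over all 6 libraries, with a median of 19.0. TOP2A, CCNB1, TPX2, CDC20, AURKA and ECT2 were the 6 most abundant. The first 2 changed places: CCNB1 was above TOP2A in all 3 control libraries and below it in all 3 siGSE1 libraries, an order noticed, as was the next, after the values were seen. CDC20 was likewise above TPX2 in all 3 control libraries and below it in all 3 siGSE1 libraries, although their ranges overlapped in control cells (49.5 to 60.4 and 47.8 to 55.1 FPKM). The 20 members that did not pass had a median level of 13.7 FPKM, below the 26.0 of the risen and 39.2 of the fallen genes. The least abundant of the 15 changed members, CENPA, still had 308 counts or more per library.

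**Figure D3:**
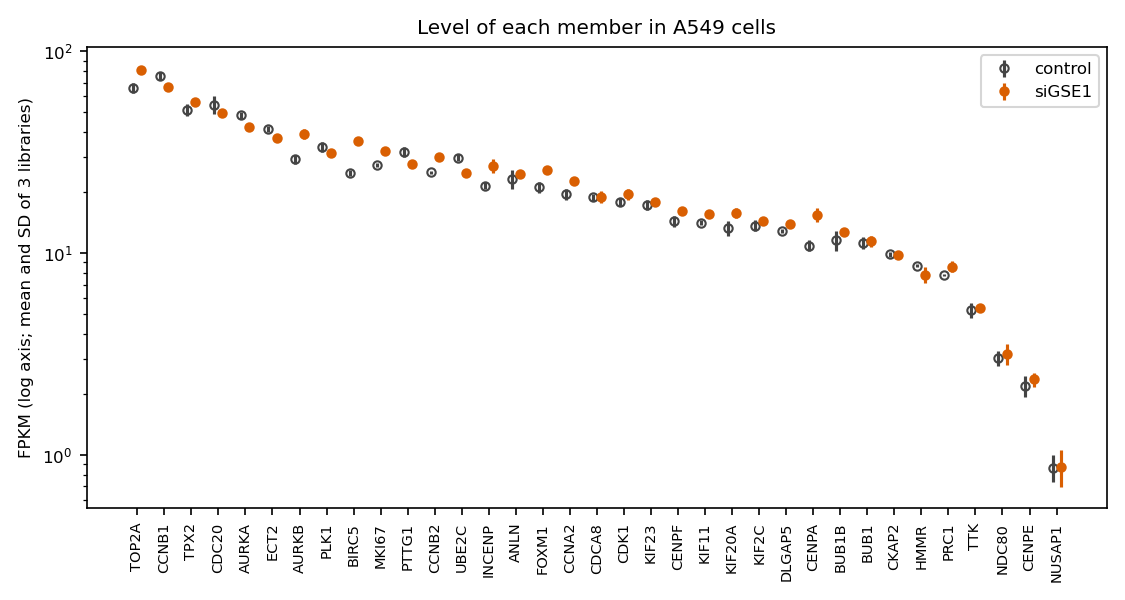
FPKM of the 35 members on a log axis, ordered by mean level, as mean and SD of 3 control libraries (open) and 3 siGSE1 libraries (filled). TOP2A and CCNB1 exchange rank between the groups, and NUSAP1 lies lowest, at 0.872 FPKM over all libraries.

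Further genes of mitosis outside the set moved both ways. Of 48 listed, 10 rose, 3 fell and 35 did not pass, a share of 27.1% changed beside 19.9% of all genes tested, with a median log2 fold change of 0.07. TACC3, which stabilizes spindle fibers, rose from 11.1 ± 0.676 FPKM to 13.3 ± 0.608 (SD, n = 3 each, adjusted p = 0.0124), TROAP, a spindle-associated protein, from 7.82 ± 0.944 FPKM to 9.89 ± 0.230 (0.0161) and GTSE1, a G2 protein, from 8.36 ± 0.600 FPKM to 10.2 ± 0.656 (0.0205). NEK2, the centrosome kinase, fell from 13.7 ± 0.543 FPKM to 11.6 ± 0.847 (adjusted p = 0.0165), CKS2, a subunit of cyclin-dependent kinases, from 182 ± 2.75 FPKM to 161 ± 7.34 (0.0168) and PBK, a mitotic kinase, from 33.3 ± 0.563 FPKM to 29.1 ± 1.87 (0.0203). With 1 library left out at a time, 1 to 10 rose and 0 to 4 fell. The lowest counts that rose were 1 without siGSE1 replicate 3, 2 without control replicate 3, 4 without siGSE1 replicate 1 or 2 and 6 without control replicate 1, and 0 fell without siGSE1 replicate 1 and 1 without control replicate 1 or siGSE1 replicate 3. With TPM scaling 16 rose and 0 fell. A call was lost for TACC3 without control replicate 3 or siGSE1 replicate 3 (adjusted p up to 0.0822), TROAP without siGSE1 replicate 1 or siGSE1 replicate 3 (adjusted p up to 0.0783), GTSE1 without control replicate 1 or control replicate 3 or siGSE1 replicate 3 (adjusted p up to 0.12), NEK2 without siGSE1 replicate 1 or siGSE1 replicate 3 (adjusted p up to 0.0854), CKS2 without control replicate 1 or siGSE1 replicate 1 (adjusted p up to 0.111) and PBK without control replicate 1 or siGSE1 replicate 1 or siGSE1 replicate 3 (adjusted p up to 0.109).

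Among the regulators of mitotic transcription, MYBL2 had a log2 fold change above that of every member. Of 14 MuvB, DREAM, B-MYB and NF-Y genes, 3 rose, 2 fell and 9 did not pass (35.7% changed, median 0.11). Of all genes tested, 19.9% changed. MYBL2, which encodes B-MYB, had 24.8, 23.6 and 22.6 FPKM in control replicates 1, 2 and 3 and 38.3, 37.2 and 39.4 in siGSE1 replicates 1, 2 and 3. The groups were far apart, with an edgeR log2 estimate of 0.67 ± 0.06 (SE) at adjusted p = 1.45e-06. TFDP1, the dimer partner of E2F factors, rose from 23.5 ± 0.944 FPKM to 30.8 ± 0.832 (SD, n = 3 each, adjusted p = 0.000215) and LIN37, a MuvB subunit, from 2.53 ± 0.135 FPKM to 3.60 ± 0.314 (0.0153). NFYC, a subunit of the CCAAT-binding factor NF-Y, fell from 9.01 ± 0.557 FPKM to 7.01 ± 0.243 (adjusted p = 0.000752) and E2F5, a repressor E2F, from 1.97 ± 0.105 FPKM to 1.48 ± 0.182 (0.0225). Leaving out 1 library at a time gave 2 or 3 that rose and 1 or 2 that fell. The 2 that rose were found without siGSE1 replicates 2 or 3, and the 1 that fell without control replicate 1, siGSE1 replicate 1 or siGSE1 replicate 3. MYBL2, TFDP1 and NFYC passed whichever library was left out. A call was lost for LIN37 without siGSE1 replicate 2 or siGSE1 replicate 3 (adjusted p up to 0.0764) and E2F5 without control replicate 1 or siGSE1 replicate 1 or siGSE1 replicate 3 (adjusted p up to 0.115).

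Genes that control entry into mitosis moved both ways, with 3 of 14 higher, 4 lower and 7 not passing (50.0% changed, median -0.04). Over all genes tested, 19.9% changed. CDKN1A, the p21 inhibitor of cyclin-dependent kinases, had 92.4, 76.2 and 89.3 FPKM in control replicates 1, 2 and 3 and 55.7, 56.8 and 59.3 in siGSE1 replicates 1, 2 and 3. It fell in every siGSE1 library below the lowest control, an edgeR log2 estimate of -0.61 ± 0.07 (SE) at adjusted p = 1.19e-05. SFN, a 14-3-3 protein of the G2 checkpoint, fell from 85.9 ± 7.88 FPKM to 66.5 ± 2.84 (SD, n = 3 each, adjusted p = 0.000844) and CDC25B, a phosphatase that activates CDK1, from 109 ± 2.46 FPKM to 98.2 ± 2.23 (0.0143). PKMYT1, a kinase that inhibits CDK1, rose from 6.40 ± 0.626 FPKM to 8.30 ± 0.476 (adjusted p = 0.00681), ENSA, an inhibitor of the phosphatase PP2A, from 20.7 ± 1.84 FPKM to 25.8 ± 0.621 (0.00372) and PPP2R2A, a subunit of that phosphatase, from 4.12 ± 0.197 FPKM to 5.31 ± 0.0557 (0.0023). The fourth that fell was WEE1, which also inhibits CDK1, named after its values were seen, with a log2 fold change of -0.33 (adjusted p = 0.017, and 0.102 by limma on log2(FPKM + 1) or log2(FPKM + 0.1)). Without siGSE1 replicate 2, 2 rose and 2 fell. CDKN1A, SFN, ENSA and PPP2R2A passed whichever library was left out. A call was lost for CDC25B without siGSE1 replicate 2 or siGSE1 replicate 3 (adjusted p up to 0.0822), WEE1 without control replicate 1 or siGSE1 replicate 2 (adjusted p up to 0.107) and PKMYT1 without siGSE1 replicate 2 (adjusted p up to 0.0506).

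Subunits of the anaphase-promoting complex, with FZR1 and UBE2S, had 0 of 16 higher, 2 lower and 14 not passing (12.5% changed, median -0.03). ANAPC13 fell from 16.4 ± 1.53 FPKM to 11.9 ± 0.367 (SD, n = 3 each), an edgeR log2 estimate of -0.49 ± 0.08 (SE) at adjusted p = 0.000514, and ANAPC5 from 12.5 ± 0.386 FPKM to 11.3 ± 0.123 (adjusted p = 0.0249). With TPM scaling 2 rose and 1 fell, and by library 3 fell without control replicate 2 and 1 without any 1 siGSE1 replicate. Condensin and cohesin, which shape and hold chromatids, had 2 of 17 higher, 1 lower and 14 not passing (17.6% changed, median 0.09). This share and the 12.5% above lie below the 19.9% of all genes tested that changed. The condensin II genes NCAPG2 and NCAPH2 rose, from 10.5 ± 0.241 FPKM to 12.7 ± 0.246 (adjusted p = 0.00508) and from 5.95 ± 0.165 FPKM to 7.15 ± 0.523 (0.0377), and the cohesin gene RAD21 fell from 28.7 ± 0.922 FPKM to 25.2 ± 1.25 (0.0126). Without control replicate 1 or 3 or siGSE1 replicate 2 or 3, 1 rose, without siGSE1 replicate 1 or 3, 0 fell, and with TPM scaling 5 rose and 0 fell. ANAPC13 and NCAPG2 passed whichever library was left out. A call was lost for ANAPC5 without control replicate 1 or siGSE1 replicate 1 or siGSE1 replicate 2 or siGSE1 replicate 3 (adjusted p up to 0.103), NCAPH2 without control replicate 1 or control replicate 3 or siGSE1 replicate 2 or siGSE1 replicate 3 (adjusted p up to 0.151) and RAD21 without siGSE1 replicate 1 or siGSE1 replicate 3 (adjusted p up to 0.0875).

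Genes of the preceding phase, G1/S and replication, were also mixed, with 7 of 28 higher, 3 lower and 18 not passing (35.7% changed, median 0.02). The share changed over all genes tested was 19.9%. CDC45, a part of the replicative helicase, rose from 9.37 ± 0.142 FPKM to 12.7 ± 0.344 (SD, n = 3 each, adjusted p = 0.000742), GINS2, of the same helicase, from 8.56 ± 0.908 FPKM to 11.8 ± 0.457 (0.00229) and E2F1, the transcription factor of S phase entry, from 15.6 ± 0.872 FPKM to 20.0 ± 0.786 (0.00259). GINS2 lies on chromosome 16 from 85676198 (minus strand), and the targeted GSE1 ends at 85676204 (plus strand), so the 2 genes overlap at their ends. The part of this overlap in the level of GINS2 was not tested. CCNE1, cyclin E1, fell from 10.6 ± 0.816 FPKM to 8.54 ± 0.464 (adjusted p = 0.0122), E2F2 from 2.87 ± 0.229 FPKM to 2.32 ± 0.190 (0.042) and the helicase gene MCM4 from 29.1 ± 1.76 FPKM to 26.1 ± 0.469 (0.0305). Without control replicate 3 and siGSE1 replicates 1, 2 and 3, 3, 3, 4 and 3 rose. Without control replicates 1 and 2, 0 and 2 fell, and without siGSE1 replicates 1, 2 and 3, 0, 1 and 0, while with TPM scaling 1 fell. CDC45, GINS2 and E2F1 passed whichever library was left out. A call was lost for CCNE1 without control replicate 1 or siGSE1 replicate 1 or siGSE1 replicate 3 (adjusted p up to 0.0652), E2F2 without control replicate 1 or control replicate 2 or siGSE1 replicate 1 or siGSE1 replicate 2 or siGSE1 replicate 3 (adjusted p up to 0.161) and MCM4 without control replicate 1 or siGSE1 replicate 1 or siGSE1 replicate 2 or siGSE1 replicate 3 (adjusted p up to 0.131).

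**Figure D4:**
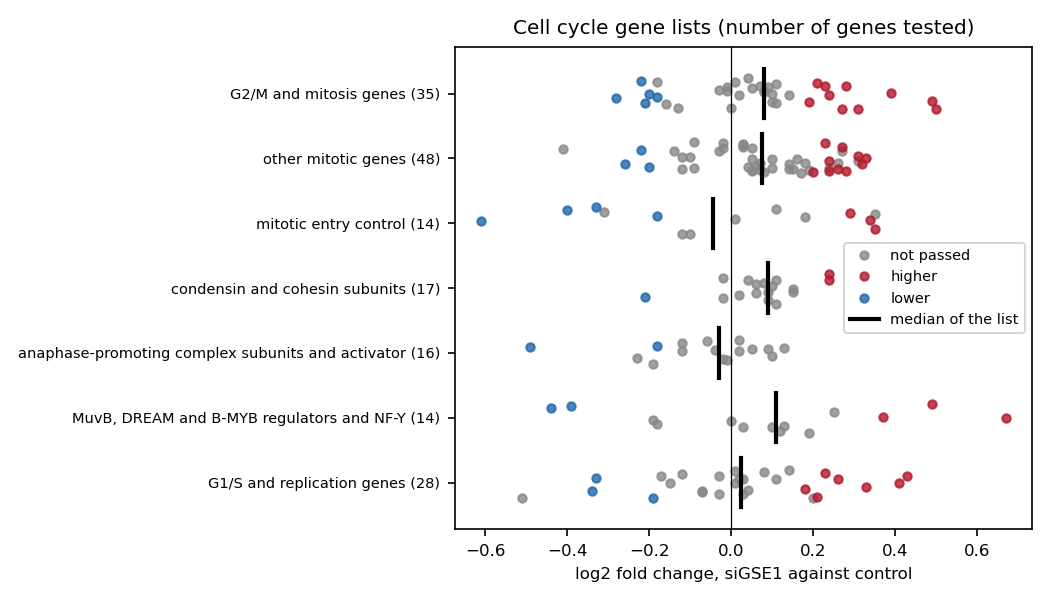
Log2 fold change (horizontal axis) of each tested gene of the 35 members and of 6 further cell cycle lists, with the median of each list as a bar. Red points rose, blue points fell and gray points did not pass. All 7 medians lie between -0.04 and 0.11, with points on both sides of 0 in each list.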

How the data were processed

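RNA of 6 A549 libraries (3 siGSE1, 3 control) was sequenced. The authors deposited whole-number read counts for 60612 genes. The deposited FPKM equal the count divided by exonic length and library total, within 0.0051. The submitters' processing notes name HISAT2, HTSeq, StringTie 1.3.3b, edgeR and hg38 without roles, beside tools for demultiplexing, trimming and quality control. Per the series text, STAR and DESeq2 were used instead. The sources used here do not give whether overlapping genes and strands were told apart.

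Counts were tested here with edgeR 4.0.16 (R 4.3.3; filterByExpr with a minimum count of 10 and total of 15, TMM, group as the only term), with p-values adjusted by Benjamini-Hochberg over 15937 genes, at 0.05. The SE was taken as the absolute log2 fold change over the root of the F statistic. The common biological coefficient of variation was 7%. The procedure was tested on simulated data. A first run exceeded the limit set for false calls, the limits were then changed, and over the repeated runs the share of false calls stayed above the nominal level, so calls near the threshold (CCNA2, KIF20A, ECT2 and PTTG1) are less secure. Alternatives were DESeq2 1.42.0 (Wald test and size factors), TPM scaling, library totals, other filters, limma 3.58.1 on log2(FPKM + 1) and log2(FPKM + 0.1), a robust prior, a replicate block and leaving out each library. The 2 ratios were added after the data were seen. Members and lists were chosen with earlier results of these data known. All 35 members and, in each further list, up to 3 genes in each direction past the threshold with the smallest adjusted p are named (WEE1 is the exception). Promoter windows came from RefSeq (GRCh38.p14).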

Additional observations from a re-analysis of the deposited data

How the results depend on the processing

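Of 559 values of single members under the alternatives, 484 kept their direction and side of the threshold, 34 lost the call, 8 gained it and 33 changed sign. With TPM scaling 2 members fell and the median log2 fold change of all members was 0.14, beside 0.07 over all genes tested. In that fit the share of all changed genes that rose went from 54.6% to 73.3%. At an adjusted p of at most 0.001 and a log2 fold change of at least 0.5, 1 member rose and 0 fell. Leaving out 1 library at a time, 6 to 11 members rose and 1 to 7 fell. The signs that changed belong to 10 members that did not pass the threshold, and the cause was not tested. With TPM scaling the log2 fold changes were 0.06 for BUB1, 0.05 for CDCA8, 0.06 for NUSAP1 and 0.03 for CKAP2. With library totals BUB1 had 0.02, CDCA8 0.01 and NUSAP1 0.02, and with no filter BUB1 had 0.01 and NUSAP1 0.00. With limma at a pseudocount of 1, BUB1 had 0.02, CDCA8 0.01 and NUSAP1 0.01, and at 0.1, 0.03, 0.01 and 0.01. With 1 library left out at a time, log2 fold changes ran from -0.06 to 0.09 for TTK, from -0.07 to 0.06 for BUB1, from -0.00 to 0.19 for BUB1B, from -0.07 to 0.03 for CDCA8, from -0.00 to 0.18 for CENPE, from -0.06 to 0.13 for NDC80, from -0.02 to 0.06 for KIF23, from -0.18 to 0.12 for NUSAP1 and from -0.01 to 0.16 for ANLN. The replicate numbers share no stated origin. Same-numbered libraries had correlations of deviations of 0.02, -0.019 and 0.002, so no shared deviation was seen. Such values cannot tell whether same-numbered libraries were prepared together. With the replicate block, 9 members rose and 5 fell, with CCNA2 at an adjusted p of 0.0616 and BUB1 at a log2 fold change of 0.00. NUSAP1 had the fewest counts of any member, at 48 to 72 per library.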
